A study of Homo sapiens with 29 samples.

Results

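The IL6 family of cytokines was examined in growing fibroblasts, in senescent fibroblasts and in senescent fibroblasts with SMARCA4 knocked down. The genes described are 10 of the 28266 in the count table, taken by symbol: the ligands IL6, LIF, IL11 and CLCF1, the receptor chains IL6ST, IL6R, LIFR and OSMR, the transcription factor STAT3 and its inhibitor SOCS3. RNA was sequenced from IMR90 ER:RAS, human lung fibroblasts of an established line that carry, on a retrovirus, a RAS oncogene fused to the hormone-binding part of the estrogen receptor. With 4-hydroxytamoxifen (4OHT) the fusion becomes active and oncogene-induced senescence follows, while cells given only the solvent, DMSO, keep growing. By their labels all 3 groups carry the fusion, and all received siRNA 1 day before induction. DMSO_siNT received DMSO and non-targeting siRNA, 4OHT_siNT received 4OHT and non-targeting siRNA, and 4OHT_siSMARCA4 received 4OHT and siRNA against SMARCA4 (BRG1), an ATPase of SWI/SNF, a complex that remodels chromatin. RNA was taken 7 days after induction. Each group holds 6 libraries, 3 with an siRNA numbered 2 and 3 with an siRNA numbered 4. The libraries also carry a set name ending in V or VM, whose meaning is not stated. Whether they came from separate cultures is not stated either, so p-values measure the spread between these libraries, part of which may be technical.

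Ligands of this family share the receptor chain gp130, which IL6ST encodes. IL6 and IL11 first bind their own receptor chain, IL6R or IL11RA, and then bring gp130 molecules together. LIF signals through gp130 paired with LIFR, oncostatin M can also use gp130 paired with OSMR, and CLCF1 acts through a complex that contains LIFR and gp130. Janus kinases bound to these chains phosphorylate STAT3, which enters the nucleus and turns on target genes that include SOCS3, and SOCS3 protein then shuts off gp130 signalling. IL6 is a core factor of the senescence-associated secretory phenotype (SASP), the mix of cytokines, growth factors and proteases that senescent fibroblasts release. Transcription of IL6 and IL11 is known to respond to NF-kappaB, C/EBP and AP-1 factors that bind near their start sites.

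The promoter sequences of IL6 and IL11 are shown because these ligands had some of the largest differences between growing and senescent cells. They were read from the RefSeq promoter table (GRCh38.p14), which holds 8 of the 10 genes and has no entry for LIF or CLCF1. The stretches shown run toward the RefSeq start site and stop before the nearest annotated exon base ahead of them. The IL6 stretch lies inside the annotated gene, in an intron of a transcript that starts further upstream. The IL6 stretch is chr7:22726950-22727146 on the plus strand, and the IL11 stretch is chr19:55370464-55370713 on the minus strand. Capitals mark matches to an NF-kappaB consensus, to the C/EBP pattern TTGCNNAA or to the AP-1 pattern TGANTCA.
IL6 promoter: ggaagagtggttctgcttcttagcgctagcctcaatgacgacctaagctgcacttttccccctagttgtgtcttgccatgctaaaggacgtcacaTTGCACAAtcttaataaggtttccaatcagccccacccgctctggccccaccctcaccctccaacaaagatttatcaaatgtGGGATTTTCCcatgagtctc
IL11 promoter: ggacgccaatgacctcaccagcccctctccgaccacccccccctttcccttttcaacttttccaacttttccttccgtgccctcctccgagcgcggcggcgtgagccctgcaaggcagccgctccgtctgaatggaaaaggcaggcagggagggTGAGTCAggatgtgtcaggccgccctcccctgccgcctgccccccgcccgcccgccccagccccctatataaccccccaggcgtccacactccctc

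In the IL6 promoter the C/EBP match lies 155 to 148 bases before the start site and the NF-kappaB match GGGATTTTCC lies 73 to 64 bases before it. The AP-1 match TGAGTCA of IL11 lies 96 to 90 bases before its start site. In IL6ST an NF-kappaB match lies 53 to 44 bases before the start, and in OSMR a C/EBP match lies 73 to 66 bases before it. LIFR, which has several RefSeq start sites, also holds a C/EBP match, 31 to 24 bases before a start site. Both strands of the 250 bases before each RefSeq start site were searched, and the motifs do not overlap each other in these promoters. Of 35116 promoter windows in the table, 9.96% held the NF-kappaB consensus, 9.05% the C/EBP pattern and 6.57% the AP-1 pattern. The STAT pattern TTCNNNGAA was found in 6.57% of all windows and, among the family, in windows of LIFR alone. No match to any of the 4 motifs was found in the windows of IL6R, STAT3 or SOCS3, which says only that these letters are not there. A match is a description of the sequence and not a binding site.

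The depth lay between 9657309 and 13448183 counts for DMSO_siNT libraries, between 13237672 and 15407710 for 4OHT_siNT and between 11382143 and 18039313 for 4OHT_siSMARCA4. SMARCA4 ranged from 275 to 330 CPM (counts per 1000000 of the library after TMM scaling) in 4OHT_siNT and from 70.4 to 141 CPM in 4OHT_siSMARCA4, without overlap (log2 fold change −1.61 ± 0.14, SE; edgeR adjusted p = 1.3e-06). All 6 4OHT_siNT libraries come from VM sets. DMSO_siNT holds 3 V and 3 VM libraries. 4OHT_siSMARCA4 holds 3 of V sets, 2 of VM sets and 1 called unlabelled here. The column name of the unlabelled library gives set 1VM, but no sample title matched it. Fits with VM sets alone leave it out. The DMSO_siNT library with siRNA 4 of set 2V (4-2V) stood apart: the counts assigned to ESR1, the gene of the estrogen receptor, were 29.5 CPM there and at least 1034 CPM in the other DMSO_siNT libraries, those assigned to HRAS were 436 CPM against at least 2165 CPM, and it had the most genes detected and the lowest depth. Its low ESR1 and HRAS go against its label as an ER:RAS library. Among the 10 genes it was the lowest DMSO_siNT library for LIF, IL11, CLCF1, IL6ST, OSMR and SOCS3. For IL6 and IL6R it was the highest. Its part in the results was examined by leaving it out. The 8 fibroblast markers were all detected, and their summed level was 11448 to 31306 CPM in DMSO_siNT, 14920 to 19815 CPM in 4OHT_siNT and 8627 to 12575 CPM in 4OHT_siSMARCA4. The 4 epithelial markers summed to at most 2.51 CPM, with KRT5 at 0. The 4 endothelial markers summed to at most 14.9 CPM. Of the 5 immune markers, CD68 gave nearly all of the summed 45.3 to 75.0 CPM, while PTPRC, CD14, CD3E and LYZ had at most 7 counts in any library. In bulk RNA, fewer expressing cells and less RNA per cell cannot be told apart.

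Every one of the 10 genes was detected in every library and passed the filter on low counts. Their order within a group was read from CPM per kilobase of annotated exon, since only a level per length can be compared between genes. In DMSO_siNT the highest was IL6ST at 32.4 ± 7.65 CPM per kilobase (SD, n = 6), followed by LIF at 29.3, SOCS3 at 14.9, STAT3 at 14.6, OSMR at 13.2, IL11 at 9.77, CLCF1 at 6.78, LIFR at 3.41 and IL6R at 2.17. IL6 was the lowest at 1.44 ± 0.900 CPM per kilobase. In growing cells the range of each gene overlapped that of its neighbour in this order.

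In 4OHT_siNT the ligands LIF, at 164 ± 53.5 CPM per kilobase, and IL11, at 61.2 ± 15.5, moved to the top of the order, and IL6 stood in place 7 at 12.9 ± 3.74. The order went on with IL6ST at 41.6, OSMR at 35.3, SOCS3 at 26.8 and STAT3 at 18.2 before IL6, and with CLCF1 at 11.3, LIFR at 2.07 and IL6R at 1.03 after it. Only IL6ST with OSMR, STAT3 with IL6, and IL6 with CLCF1 overlapped as neighbours. Among the genes in this order, the receptor chains LIFR and IL6R were the least abundant, while gp130 remained among the higher ones. OSMR, the chain that oncostatin M can use with gp130, stood next to IL6ST at 35.3 CPM per kilobase.

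In 4OHT_siSMARCA4 the leading genes were again LIF, at 141 ± 41.0 CPM per kilobase, IL11 at 67.8, IL6ST at 53.3 and OSMR at 44.3, and IL6 stood in place 5 at 36.1 ± 11.6. SOCS3 at 32.9, STAT3 at 16.9, CLCF1 at 11.4, IL6R at 2.31 and LIFR at 1.30 followed. SOCS3, STAT3, CLCF1 and IL6R each lay apart from the next in the order SOCS3, STAT3, CLCF1, IL6R, and the other neighbours overlapped. LIFR and IL6R changed places between 4OHT_siNT and 4OHT_siSMARCA4, although their ranges overlapped in the latter. With the length of the longest transcript in place of all exons, IL6 kept places 10, 7 and 5 in the 3 groups, but STAT3 rose to 32.4 CPM per kilobase and place 2 in DMSO_siNT, so the position of STAT3 depends on the length used.

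**Figure D1:**
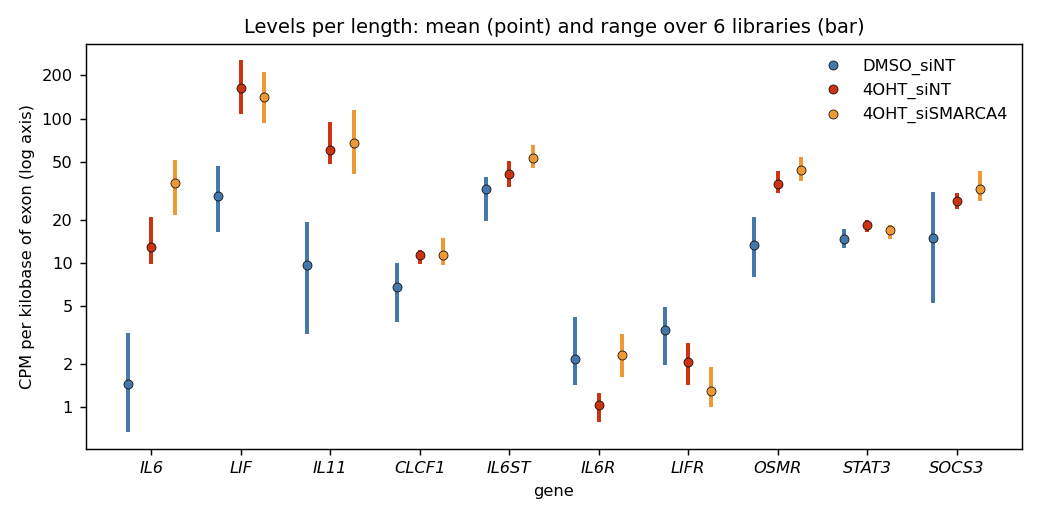
Levels of the 10 genes as CPM per kilobase of annotated exon on a log axis; points are means and bars the range over 6 libraries in DMSO_siNT (blue), 4OHT_siNT (red) and 4OHT_siSMARCA4 (orange). IL6 climbs from a mean of 1.44 through 12.9 to 36.1 CPM per kilobase, while LIFR goes from 3.41 through 2.07 to 1.30.

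To ask how senescence changed the family, 4OHT_siNT was compared with DMSO_siNT. All 4 ligands rose, most of all IL6, and the receptor chains went different ways: OSMR rose while IL6R and LIFR fell. STAT3 and SOCS3 rose as well. In total 9 of the 10 genes were called at an adjusted p under 0.05, 7 higher and 2 lower. Calls were common in this comparison: 52.8% of the 13136 genes tested were called, 23.9% higher and 28.9% lower. The median log2 fold change was 2.56 for the 4 ligands, −0.18 for the 4 receptor chains and −0.05 for all genes tested.

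IL6 (chromosome 7, 22725884 to 22732002, plus strand, protein-coding; GENCODE version 44 on GRCh38 here and for the positions that follow) ranged from 2.99 CPM through a median of 4.67 to 13.7 CPM in DMSO_siNT, and from 44.3 through 50.8 to 87.2 CPM in 4OHT_siNT. All 6 senescent libraries lay above all growing ones, and the growing library with the highest IL6 was 4-2V. IL6 rose by 3.19 ± 0.32 on the log2 scale (SE; edgeR adjusted p = 7.78e-08), or 9.15-fold. Without 4-2V it was 3.56, and with VM sets alone 3.80. The antisense gene IL6-AS1 has exon bases that overlap those of IL6. It had a mean of 0.634 CPM in DMSO_siNT and 1.47 CPM in 4OHT_siNT. Whether the counting used strand is not stated, so reads from the shared bases cannot be assigned with certainty. Exons of LIF, IL6ST, LIFR and OSMR also overlap those of genes on the opposite strand, and the same limit holds for them.

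LIF (chromosome 22, 30240453 to 30246759, minus strand), named for its effect on leukemia cells and able to hold stem cells undifferentiated, ranged from 65.7 through 108 to 175 CPM in growing cells. It ranged from 435 through 606 to 954 CPM in senescent cells, without overlap. LIF rose by 2.48 ± 0.26 on the log2 scale (adjusted p = 1.52e-07), or 5.60-fold. The 3 senescent libraries with siNT 4 (713 to 954 CPM) lay above the 3 with siNT 2 (435 to 499.8 CPM).

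IL11 (chromosome 19, 55364382 to 55370463, minus strand), a ligand with known roles in fibrosis, ranged from 8.96 through 23.3 to 50.2 CPM in growing cells and from 135 through 148 to 246 CPM in senescent cells. The groups did not overlap, and the lowest growing library was 4-2V. This was a rise of 2.64 ± 0.32 on the log2 scale (adjusted p = 1e-06), or 6.24-fold. CLCF1 (chromosome 11, 67364168 to 67374177, minus strand) changed less. It ranged from 7.41 through 12.3 to 17.9 CPM in growing cells and from 18.6 through 21.0 to 22.1 CPM in senescent cells, still without overlap but with a gap of under 1 CPM. Its log2 fold change was 0.73 ± 0.16 (adjusted p = 0.000796), and 0.41 within VM sets (adjusted p = 0.00933). With siNT 4 alone it was 0.60 and was not called (adjusted p = 0.0697).

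**Figure D2:**
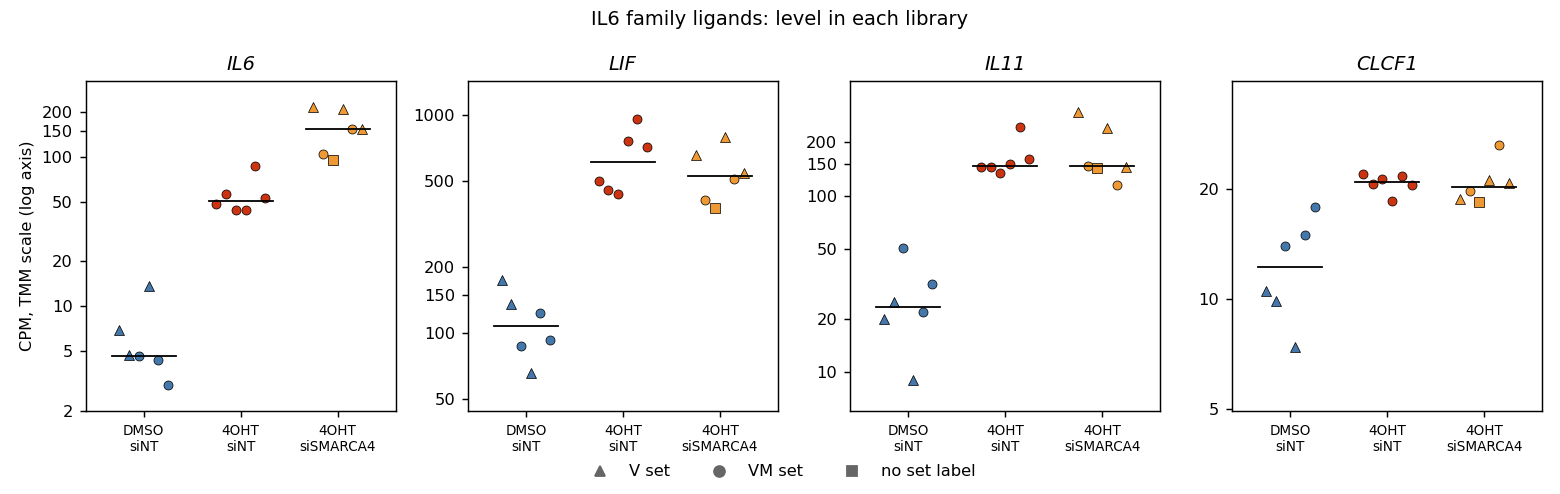
CPM on the TMM scale (log axis) of IL6, LIF, IL11 and CLCF1 in each of 18 libraries, by group, with triangles for V sets, circles for VM sets, a square for the library with no set label and lines for group medians. For all 4 ligands the 4OHT_siNT libraries sit above the DMSO_siNT libraries, and for IL6 the 4OHT_siSMARCA4 libraries (96.3 to 216 CPM) sit above the 4OHT_siNT libraries (44.3 to 87.2 CPM).

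Among the receptor chains, OSMR (chromosome 5, 38845858 to 38945596, plus strand), the chain that oncostatin M uses with gp130, was at 59.3 through 96.4 to 144 CPM in growing cells and at 227 through 241 to 301 CPM in senescent cells. No library of a group entered the range of the other. OSMR rose by 1.41 ± 0.18 on the log2 scale (adjusted p = 1.71e-06), or 2.66-fold. Oncostatin M itself, encoded by OSM, had at most 7 counts in any library. IL6ST (chromosome 5, 55935095 to 55995022, minus strand) went from 243 through 441 to 459 CPM in growing cells and from 418 through 491 to 601 CPM in senescent cells. Its ranges overlapped, and the log2 fold change of 0.36 ± 0.15 did not pass the threshold (adjusted p = 0.0508). Its 95% interval was 0.05 to 0.67. IL6ST was called in 15 of 39 alternatives, DESeq2 among them (adjusted p = 0.0242).

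IL6R (chromosome 1, 154405193 to 154469450, plus strand), the chain through which a cell responds to IL6 directly, ranged from 10.3 through 13.5 to 28.6 CPM in growing cells and from 5.73 through 7.21 to 8.45 CPM in senescent cells. Every senescent library lay below every growing one. IL6R fell by 1.06 on the log2 scale (SE 0.22, edgeR adjusted p = 0.000516), a 2.09-fold drop. The highest growing library was 4-2V. Without it the log2 fold change was −0.79 (adjusted p = 0.000205), and within VM sets −0.65 (adjusted p = 0.00154).

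LIFR (chromosome 5, 38474668 to 38608354, minus strand), the partner of gp130 for LIF, ranged from 24.5 through 43.2 to 58.1 CPM in growing cells and from 17.9 through 24.9 to 32.9 CPM in senescent cells. Only 3 of 6 senescent libraries lay below all growing ones. The log2 fold change was −0.72 ± 0.20 (adjusted p = 0.0046). Growing libraries of V sets (47.0 to 58.1 CPM) had more LIFR than those of VM sets (24.5 to 39.5 CPM), and with VM sets alone the difference was −0.33 and was not called (adjusted p = 0.124).

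STAT3 (chromosome 17, 42313324 to 42388540, minus strand) moved the least of the genes called. It ranged from 148 through 164 to 187 CPM in growing cells and from 189.8 through 209 to 215 CPM in senescent cells, close together but not overlapping (log2 fold change 0.32 ± 0.08, adjusted p = 0.00309). SOCS3 (chromosome 17, 78356778 to 78360077, minus strand) was uneven in growing cells, from 14.8 through 36.7 to 82.5 CPM. In senescent cells it was even, from 67.0 through 73.4 to 81.3 CPM, all of it below the highest growing library. The log2 fold change was 0.84 ± 0.26 (adjusted p = 0.0103). With siNT 2 alone it was 0.44 and was not called (adjusted p = 0.213), nor was it without the libraries of set 2VM (0.72, adjusted p = 0.115) or of set 3VM (0.82, adjusted p = 0.0591), and within VM sets, where the 3 growing libraries reached at most 40.3 CPM, it was 1.12 (adjusted p = 8.76e-07).

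Counted by ranges, 7 of the 10 genes had groups that did not overlap in this comparison, against 33.8% of all genes tested.

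The effect of SMARCA4 knockdown was read from 4OHT_siSMARCA4 against 4OHT_siNT. Of the 4 ligands, IL6 alone was called. Of the receptor chains, IL6R was called higher, LIFR was called lower, and IL6ST and OSMR were not called. STAT3 and SOCS3 were not called. The 3 calls (2 higher, 1 lower) among 10 genes stand beside 10.6% of all genes tested, 4.99% higher and 5.65% lower. Groups did not overlap for 2 of the 10 genes, IL6 and IL6R, and for 11.4% of all genes tested. This comparison uses the 4OHT_siNT libraries that also entered the comparison above, so the results of the pair are not independent.

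IL6 ranged from 96.3 CPM through 154 to 216 CPM in the knockdown libraries, all above the highest 4OHT_siNT library at 87.2 CPM. The 2 highest knockdown libraries were of V sets, at 216 and 210.04 CPM. The third V library and a VM library were both at 154 CPM. The lowest were a VM library at 105 CPM and the unlabelled one, 1VM by its column name, at 96.3 CPM. The 2 highest libraries also had the most SMARCA4 left, 125 and 141 CPM, while the 2 lowest had 87.0 and 78.8 CPM. Of the libraries at 154 CPM of IL6, the VM library had the least SMARCA4 of all, 70.4 CPM, and the V library had 92.7 CPM. The part of this spread in the IL6 difference was not tested. IL6 rose by 1.48 ± 0.29 on the log2 scale (edgeR adjusted p = 0.00232), or 2.80-fold. Within VM sets alone, with 2 knockdown libraries, it was 1.20 (adjusted p = 0.0013). Either SMARCA4 siRNA alone gave a call, with 1.31 for siRNA 2 (adjusted p = 0.0294) and 1.63 for siRNA 4 (adjusted p = 0.0153). Against the siNT 4 libraries alone, the value of 1.33 missed the threshold (adjusted p = 0.0652). IL6-AS1 was at a mean of 2.98 CPM in the knockdown libraries.

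IL6R ranged from 11.6 through 16.0 to 21.8 CPM in the knockdown libraries, above all 4OHT_siNT libraries (at most 8.45 CPM). The log2 fold change was 1.17 ± 0.22 (adjusted p = 0.00224), or 2.24-fold. The order of the set letters was opposite to that of IL6. Knockdown libraries of V sets had 11.6 to 15.4 CPM and those of VM sets 16.7 and 21.8 CPM. The unlabelled library, 1VM by its column name, had 19.1 CPM. Within VM sets the log2 fold change was 1.40 (edgeR adjusted p = 3.53e-05). With siRNA 4 alone the value was 1.08 (adjusted p = 0.0605), and against siNT 2 alone it was 1.02 (adjusted p = 0.0607).

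LIFR ranged from 12.7 through 14.9 to 22.3 CPM after knockdown, with 5 of 6 libraries below the lowest 4OHT_siNT library at 17.9 CPM. It fell by 0.67 on the log2 scale (SE 0.20, edgeR adjusted p = 0.0357), a 1.59-fold drop, and by 0.83 within VM sets (adjusted p = 0.0165). This was the weakest of the 3 calls. It was lost without any 1 of 8 libraries (log2 fold changes −0.69 to −0.59, adjusted p = 0.0503 to 0.0824), namely 4OHT_siNT 2-1VM, 2-2VM, 2-3VM and 4-3VM and 4OHT_siSMARCA4 2-3V, 2-3VM, 4-2VM and the unlabelled one. It was also lost with siRNA 4 alone (−0.52, adjusted p = 0.378) and against siNT 4 alone (−0.41, adjusted p = 0.358). The antisense gene LIFR-AS1, with exon bases that overlap those of LIFR, had means of 0.838, 0.314 and 0.114 CPM in DMSO_siNT, 4OHT_siNT and 4OHT_siSMARCA4.

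LIF and IL11, the most abundant ligands per length, were not called. LIF ranged from 374 through 523 to 796 CPM after knockdown (log2 fold change −0.22 ± 0.25, 95% interval −0.73 to 0.30, adjusted p = 0.643). LIF averaged 664 CPM in knockdown libraries of V sets and 456 CPM in those of VM sets. The mean in 4OHT_siNT, all of VM sets, was 635 CPM. Over 40 alternatives the LIF difference ran from −0.58 to 0.24, with no call. IL11 ranged from 114 through 146 to 298 CPM (0.15 ± 0.30, interval −0.47 to 0.77, adjusted p = 0.81). Knockdown libraries of V sets had a mean of 228 CPM of IL11 and those of VM sets 131 CPM, and within VM sets, the sets of all 4OHT_siNT libraries, the difference was −0.34 (adjusted p = 0.372). The intervals of LIF and IL11 do not reach the difference of 1.48 seen for IL6.

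CLCF1, at 18.5 through 20.3 to 26.4 CPM, gave a log2 fold change of 0.01 ± 0.16 (interval −0.32 to 0.34). IL6ST was at 569 through 618 to 771 CPM (0.36 ± 0.15, adjusted p = 0.142) and OSMR at 276 through 312 to 380.2 CPM (0.33 ± 0.17, adjusted p = 0.248). Of the 6 knockdown libraries, 3 for IL6ST and 4 for OSMR lay above all 4OHT_siNT libraries. With only the libraries of the 2 groups in the fit, IL6ST (adjusted p = 0.0159) and OSMR (adjusted p = 0.0129) were called.

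STAT3 ranged from 169 through 193 to 200.4 CPM (−0.11 ± 0.08, adjusted p = 0.46). SOCS3 ranged from 75.9 through 81.4 to 115 CPM (0.29 ± 0.26, adjusted p = 0.524). Its highest knockdown libraries, at 109 and 115 CPM, were both of V sets and were the same libraries that led IL6. The summed fibroblast markers were lower in all knockdown libraries than in all 4OHT_siNT libraries. Of these markers COL1A1, COL1A2, COL3A1, DCN, PDGFRB and THY1 were called lower, while VIM and LUM were not called. The mean of COL1A1 went from 7053 to 2642 CPM and that of VIM from 6792 to 6663 CPM. The part of the markers in the differences of the family was not tested.

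**Figure D3:**
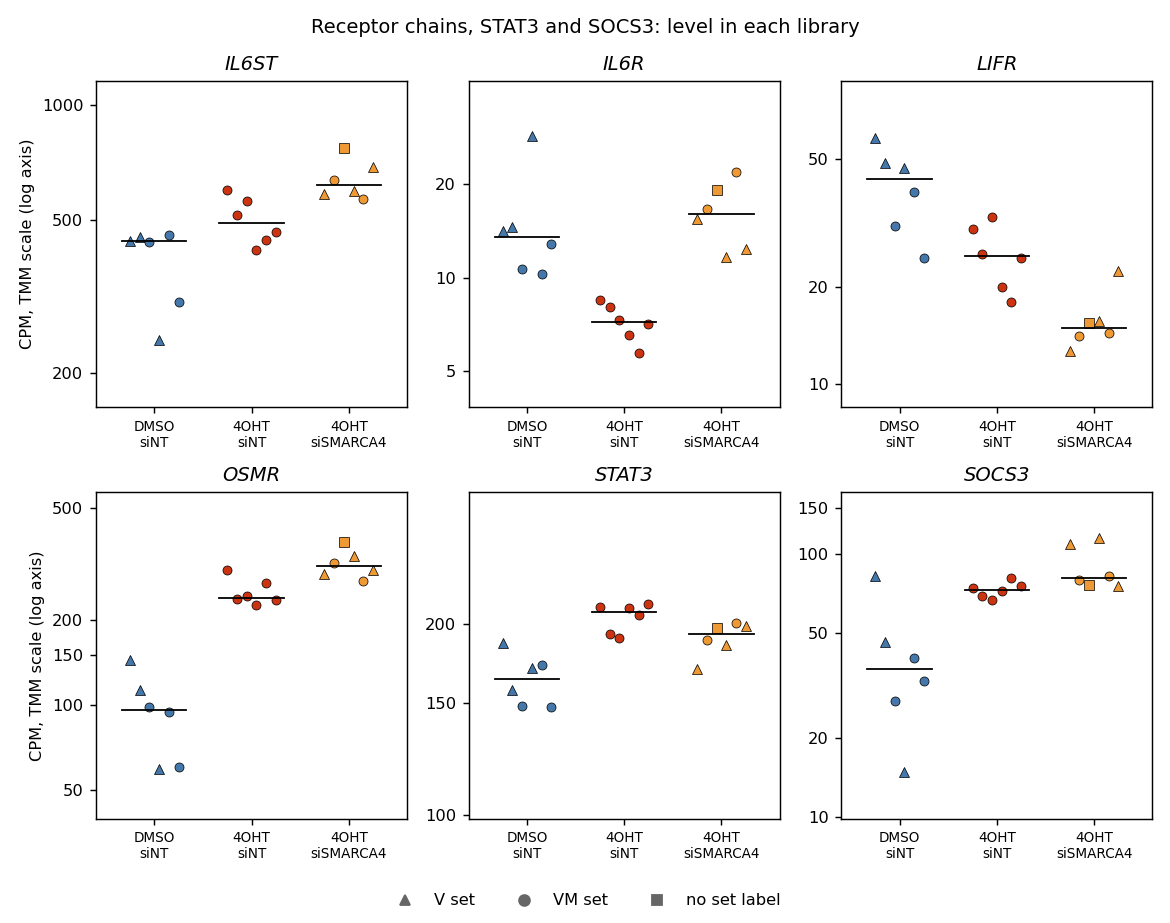
CPM on the TMM scale (log axis) of the receptor chains, STAT3 and SOCS3 in each library, with triangles for V sets, circles for VM sets, a square for the library with no set label and lines for group medians. IL6R dips in 4OHT_siNT (5.73 to 8.45 CPM) between higher levels in DMSO_siNT and 4OHT_siSMARCA4, whereas LIFR steps down from a median of 43.2 through 24.9 to 14.9 CPM.

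Senescent cells with SMARCA4 knocked down were also set against growing cells. Of the 10 genes, 8 were called higher and 1, LIFR, lower, where 50.5% of all genes tested were called, 23.3% higher and 27.3% lower. The comparison shares all of its libraries with the ones above, and its values are given beside theirs. IL6 differed by 4.68 ± 0.33 on the log2 scale (edgeR adjusted p = 6.52e-10), or 25.6-fold, against 9.15-fold without knockdown. LIF (2.27 ± 0.26), IL11 (2.79 ± 0.32) and CLCF1 (0.74 ± 0.16) are set beside their values without knockdown of 2.48, 2.64 and 0.73. The IL11 value moved with the set letters, from 1.91 within VM sets to 3.67 within V sets. OSMR reached 1.74 ± 0.18, SOCS3 1.14 ± 0.26 and IL6ST 0.72 ± 0.15, and IL6ST was called here (adjusted p = 0.000519).

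LIFR differed by −1.39 ± 0.20 on the log2 scale (edgeR adjusted p = 8.59e-06), and the 6 knockdown libraries lay below all growing ones. IL6R was the exception among the 10: its log2 fold change was 0.10 ± 0.22 (interval −0.35 to 0.55, adjusted p = 0.72). The value turned with the set letters. It was 0.75 within VM sets (adjusted p = 0.00313), −0.53 within V sets (adjusted p = 0.294) and 0.36 without 4-2V (adjusted p = 0.0448). The STAT3 difference of 0.21 ± 0.08 was near the threshold (adjusted p = 0.038) and lost its call in 16 of 39 alternatives.

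**Figure D4:**
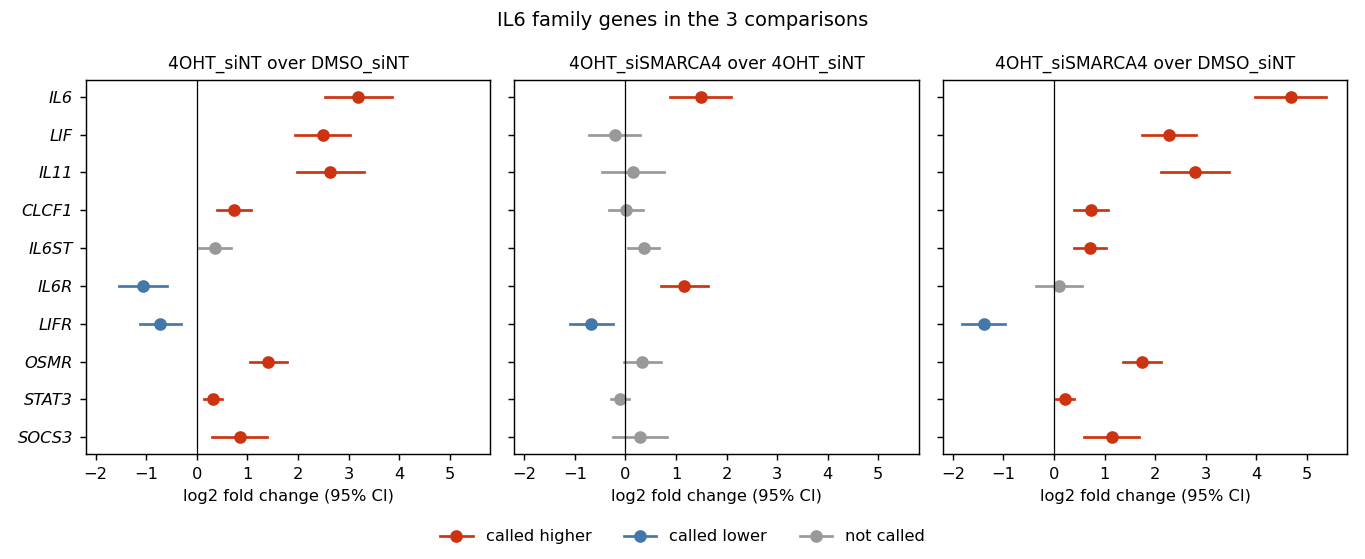
Log2 fold change of each gene with its 95% confidence interval in the 3 comparisons, red for called higher, blue for called lower and gray for not called. IL6 is called higher in all 3, LIFR lower in all 3, and IL6R is lower by 1.06 in senescence, higher by 1.17 with knockdown and at 0.10 when knockdown is set against growing cells.

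The pair of siRNAs in each group was compared in a fit with 6 levels, group by siRNA number, to see how far the values of the family depended on the siRNA. None of the 10 genes was called in DMSO_siNT, in 4OHT_siNT or in 4OHT_siSMARCA4, where edgeR called 0.0512%, 0.0732% and 0.00732% of all genes tested. The closest was OSMR in growing cells, higher with siNT 2 by 0.73 ± 0.19 (adjusted p = 0.0625). LIF in senescent cells was lower with siNT 2 (−0.81 ± 0.28, adjusted p = 0.289), and the libraries with siNT 4, in which LIF was higher, also had more counts assigned to ESR1 (2841 to 3111 CPM against 2021 to 2213 CPM). Whether that difference in the fusion has a part in LIF was not tested. The senescence difference of LIF differed between the siRNA numbers by −1.30 ± 0.40, which was not called (adjusted p = 0.109). For IL6 that difference was 0.01 ± 0.59. The knockdown difference of IL6, taken between siRNAs of the same number, differed by 0.01 ± 0.56 between the numbers. SMARCA4 and non-targeting siRNAs of the same number are different siRNAs.

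V and VM sets were compared where a group held both. Again none of the 10 genes was called, where 0.324% of genes were called in DMSO_siNT and 0.101% in 4OHT_siSMARCA4. In growing cells CLCF1 came closest, lower in V sets by −0.76 ± 0.16 on the log2 scale (edgeR adjusted p = 0.0568), and IL6 was higher in V sets by 1.03 ± 0.36 (adjusted p = 0.199). In knockdown cells IL6 was higher in V sets by 0.57 ± 0.35 (adjusted p = 0.781) and IL6R lower by −0.56 ± 0.26 (adjusted p = 0.608). With 2 or 3 libraries on each side these intervals are wide.

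The genes with a pattern most like that of IL6 were sought by Pearson correlation of log2 CPM over all 18 libraries among the 11514 genes whose log2 CPM averaged over 1. They were CSF2, the growth factor GM-CSF (r = 0.982), CXCL2, a neutrophil chemokine (r = 0.981), LOC374443 (r = 0.980), HPCAL1, a calcium-binding protein gene (r = 0.980), and SLC2A6, a member of the glucose transporter family (r = 0.978). The libraries share 3 groups, so these are descriptions of a common order of groups. CSF2 went from a mean of 0.381 ± 0.293 CPM (SD, n = 6) in DMSO_siNT through 44.5 ± 20.5 CPM in 4OHT_siNT to 111 ± 34.0 CPM in 4OHT_siSMARCA4. CXCL2 went from 1.71 ± 0.961 through 32.2 ± 6.19 to 95.5 ± 30.1 CPM. Within the family the same measure was 0.89 for OSMR, 0.86 for LIF and 0.85 for IL11, −0.78 for LIFR and −0.03 for IL6R.

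Other genes of the pathway were described from 5 lists with 40 genes, of which 34 passed the filter. Between senescent and growing cells 13 of them rose and 10 fell by the edgeR test, where 23.9% of all genes were higher and 28.9% lower. Their median log2 fold change was 0.14, against −0.05 for all genes. The ligands OSM, CNTF, IL27 and IL31, the receptor gene CNTFR and the phosphatase gene PTPN6 had at most 7 counts in any library. Receptor chains were mixed: IL31RA and IL27RA were called higher, while IL11RA, the chain that binds IL11, was called lower. IL11RA had 10.9 ± 2.41 CPM in DMSO_siNT and 3.97 ± 0.841 CPM in 4OHT_siNT, without overlap, and fell by 1.45 on the log2 scale (edgeR adjusted p = 7.05e-07).

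The list of inhibitors, phosphatases and shedding enzymes had 5 of 8 tested genes lower and none higher (median −0.40), beside 28.9% of all genes lower and 23.9% higher. The largest fall was that of SOCS1, a relative of SOCS3 that inhibits Janus kinases, from 13.3 ± 4.90 CPM to 3.31 ± 0.459 CPM (log2 fold change −1.997, edgeR adjusted p = 1.22e-06). SOCS3 and SOCS1 thus had opposite signs in this comparison. Of the 7 kinases, STATs and adaptors, 1 was called higher and 2 lower, and the split turned to 3 higher and 0 lower within VM sets. Of 14 genes known as STAT3 targets, 10 were called higher and 1 lower (median 0.73), with the same shares of all genes as background. Nothing particular to a list is read from these counts. The largest rises were in ICAM1, an adhesion molecule (4.76, from 23.2 ± 13.2 to 628 ± 168 CPM), IL4R, a receptor chain for interleukin 4 (2.17), and TIMP1, an inhibitor of metalloproteinases (2.05). PIM1, a kinase gene, fell by 1.40 on the log2 scale (adjusted p = 0.000423). Within VM sets ICAM1 was at 5.67 and PIM1 at −0.61 (adjusted p = 0.0221). Several of these genes are known to respond to other factors as well.

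With SMARCA4 knockdown, 1 of the 34 genes was called, beside 10.6% of all genes. It was CEBPD, which encodes a C/EBP factor known to act on the IL6 promoter. CEBPD ranged from 24.2 through 28.9 to 46.3 CPM in 4OHT_siNT and from 48.0 through 63.5 to 90.1 CPM in 4OHT_siSMARCA4. The groups did not overlap, and the log2 fold change was 1.07 ± 0.29 (adjusted p = 0.0237). It was 1.31 within VM sets (adjusted p = 0.000541). ICAM1 (0.10), IL4R (0.08) and SOCS1 (0.51) were not called. The median of the 34 genes was 0.06, against 0.01 for all genes.

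The count depends on the growing library 4-2V, which enters the fit through the shared estimate of spread, the filter and the scaling. The part of each was not tested. Without it 24.6% of all genes were called in the knockdown comparison, and of the 34 genes CEBPD, CEBPB and IL27RA were called higher and TYK2, MYC and CCND1 lower. These names were chosen after their values were seen. With VM sets alone 21.0% of all genes were called, and 3 of the 34 genes were higher and 4 lower, with CEBPD, CEBPB and IL27RA again the higher ones. Of the family itself, IL6, IL6R, LIFR and also IL6ST (0.35, adjusted p = 0.0235) were called without 4-2V.

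**Figure D5:**
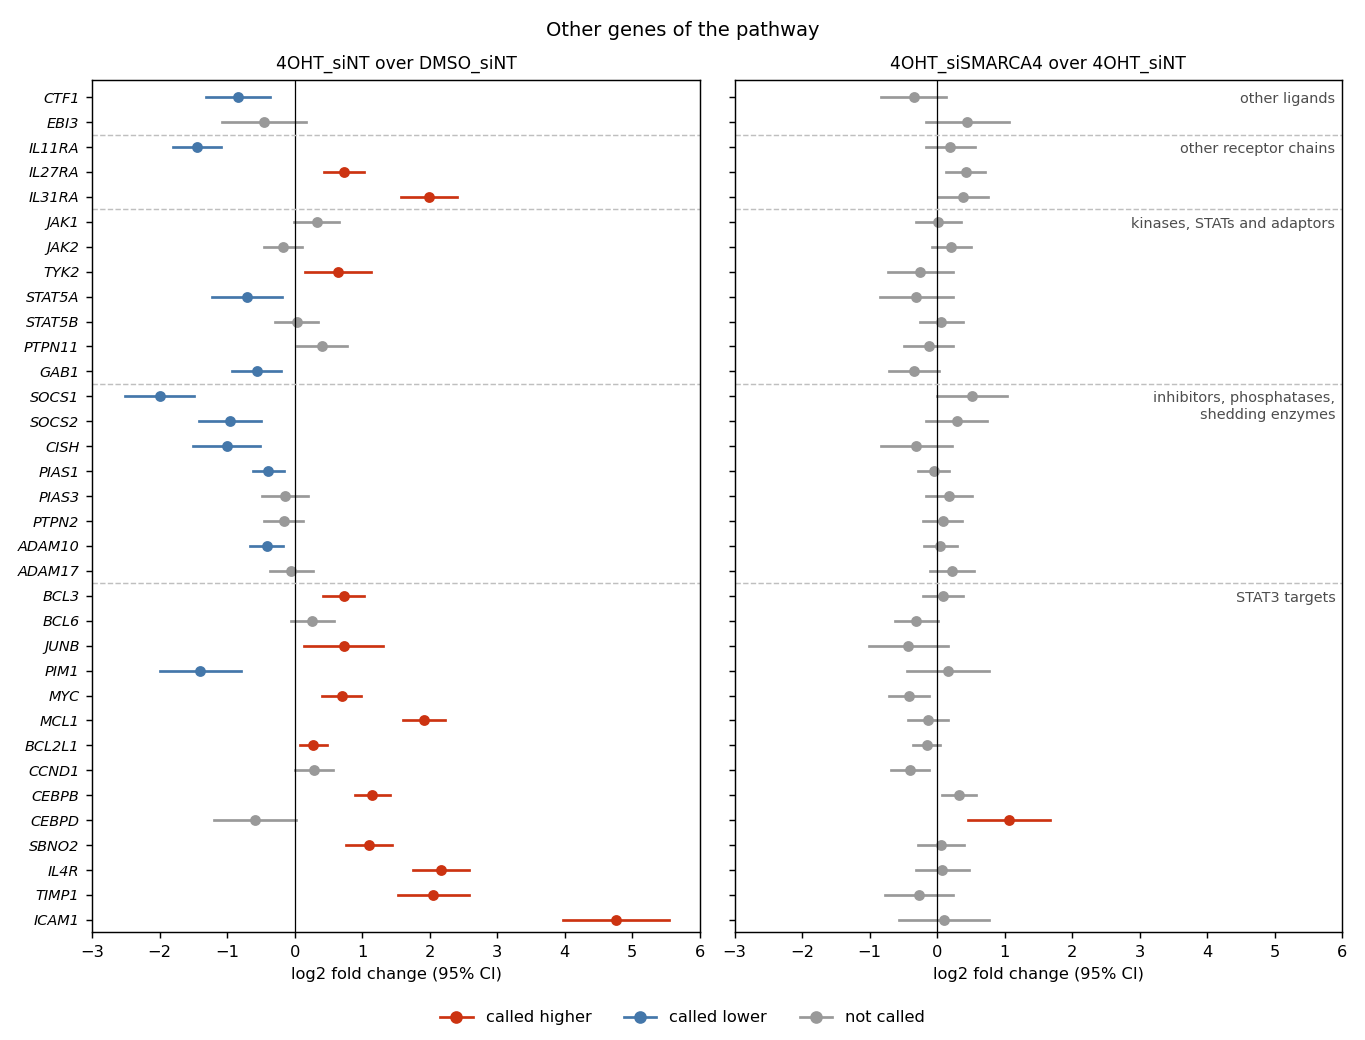
Log2 fold change with 95% confidence interval of the 34 other pathway genes tested, by list, for senescent over growing cells (left) and for SMARCA4 knockdown over senescent cells (right), red for called higher, blue for called lower and gray for not called. On the left 13 genes are called higher and 10 lower, and on the right CEBPD is the 1 gene called.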

How the data were processed

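Polyadenylated RNA was made into libraries and, per the submitters' processing notes, handled with STAR 2.7.8a and DESeq2 1.36.0 on hg38. The counting program and its use of strand are not given in the sources used here. The authors deposited raw counts per gene symbol, not normalized, in 36 columns, 2 lanes for each of 18 libraries, and lanes were summed here. Of 29 labelled samples, 17 matched a library and 12 were not analysed here. A column named for siRNA 2 and set 1VM matched no sample title and was used by group alone.

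Genes were filtered with filterByExpr (minimum count 10; 13136 kept, 99.9% of counts) and tested in edgeR 4.0.16 (R 4.3.3, quasi-likelihood) with TMM scaling, 18 libraries in 1 fit and no covariate. Genes were called at a Benjamini-Hochberg adjusted p, taken over all genes tested, under 0.05. SEs were derived from the F statistic. The common biological coefficient of variation was 23.3%. Counting error weighs most on genes with few counts, such as IL6 (at least 41 per growing library), CLCF1 (at least 62) and IL6R (at least 84 per senescent library). Alternatives covered scaling, DESeq2 1.42.0, filters, samples, replicate block, set letters, siRNAs and left-out libraries. On simulated data for the knockdown comparison, with 200 changed genes, edgeR recovered 79% of 2-fold and 97% of 4-fold changes among 13029 genes. False calls there made up 6.88% of the edgeR calls and 13.0% of the DESeq2 calls.

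The members, lists and rule for names (all 10 genes, SMARCA4, list genes called with knockdown, the 3 called list genes with the largest rise and fall in senescence, 5 genes most like IL6, ESR1 and HRAS) were chosen with earlier results of these data known. Lanes of a library differed by a chi-square per degree of freedom of 1.19 to 1.27 and libraries of a group by 2.33 to 315, so none was merged. A pair of genes of the pathway lists is not reported here and was left out of the list counts.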

Additional observations from a re-analysis of the deposited data

Results flagged for a closer look

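Within each group of 6 libraries, the gap of the highest or lowest library to its neighbour was set against the range of the group, on log2 CPM, for each of the 10 genes. Of 30 sets of values, 3 passed Dixon's limit of 0.625, and chance gives about 1 in 20, or 1.5 of 30. In 4OHT_siNT the library with siNT 4 of set 2VM was far above the others for IL6 (87.2 CPM, ratio 0.633) and for IL11 (246 CPM, ratio 0.694). Without it the senescence difference was 3.03 for IL6 and 2.50 for IL11 on the log2 scale, and the knockdown difference of IL6 was 1.65 (edgeR adjusted p = 0.00175). In DMSO_siNT the library 4-2V was far above the others for IL6R (28.6 CPM, ratio 0.659), and the report gives the IL6R values without it. No difference of a difference between siRNA numbers was called for any of the 10 genes.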

How the results depend on the processing

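The count of 9 genes called between senescent and growing cells stayed within 1.5 times under all alternatives but 1, a required change over 2-fold, which left 5. Leaving out single libraries or sets gave 8 to 10 there, 2 to 4 with knockdown and 8 to 10 for knockdown against growing cells. The knockdown count of 3 was the most dependent: 5 with only the 2 groups in the fit, with or without 4-2V, 1 with siSMARCA4_4 alone, 1 against siNT 4 alone and 0 with sets as a replicate block. Under that replicate block IL6 was at 1.00 (adjusted p = 0.0937), IL6R at 1.15 (0.0939) and LIFR at −0.91 (0.116). The sets share a name but were not shown to be paired. A correlation of deviations over 0.1 was seen in 5 of 15 same-set pairs (median 0.035). Among pairs with other set labels it was seen in 27 of 93 (median −0.00084). Without 4-2V the block gave 3 calls. Knockdown differences near 0 changed sign, with no call: CLCF1 was −0.0067 with DESeq2 size factors, −0.0068 with DESeq2, −0.011 with at least 10 counts in every library, −0.0034 without 4-2V, −0.14 with siSMARCA4_2 alone and −0.036 against siNT 2, IL11 was −0.34 with VM sets alone, −0.30 with VM sets and the unlabelled library, −0.050 against siNT 4 and −0.14 under the block without 4-2V, and LIF was 0.24 against siNT 2. With single libraries or sets left out, IL11 ran from −0.049 to 0.39, CLCF1 from −0.078 to 0.045, and IL6R in knockdown against growing cells from −0.21 to 0.50, where V sets alone gave −0.53. Over all genes, 1397 were called with knockdown, against 236 under the block, 3405 with 2 groups, 3269 without 4-2V, 2858 with VM sets, 4064 with VM sets and the unlabelled library, 595 at an adjusted p under 0.01, 461 over 2-fold, 254 with siSMARCA4_4 alone, 654 against siNT 2, 601 against siNT 4, and 432 to 3674 with single libraries or sets left out. Senescence calls fell from 6935 to 2822 over 2-fold and 4356 under the block, and those of knockdown against growing cells from 6635 to 2820 over 2-fold and 2732 with V sets alone. The cause of these changes was not tested. Depth limits the antisense genes, with few counts, and, less, IL6, IL11 and CLCF1 in growing cells and IL6R in senescent cells.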
